A study of Mus musculus and Sus scrofa with 30 samples.

Results

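A set of 9 genes of the aryl hydrocarbon receptor (AHR) pathway and of the enzymes that modify foreign compounds was followed through induced fat cell formation in mouse 3T3-L1 cells and in porcine dedifferentiated fat (DFAT) cells. The genes are Ahr, Arnt, Tiparp, Cyp1b1, Por, Ephx1, Fmo1, Fmo2 and Ugdh, chosen by name with earlier results on these same libraries in view, and matched by symbol, ignoring case, in the 2 tables of size-factor normalized gene counts that the authors deposited. All 9 were listed among 24843 mouse genes and all 9 among 34307 pig genes. All 9 mouse genes passed the minimum mean of 10 normalized counts over the 15 libraries of the table. Of the pig genes 8 passed, FMO1 only narrowly (mean 12.7), and FMO2 was listed at 0 in all 15 libraries.

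3T3-L1 is an established mouse embryonic fibroblast line that can become adipocytes, and DFAT cells are mature fat cells, here from pig subcutaneous fat, that have reverted to a dividing state. How many pigs gave the DFAT cells is not stated in the labels. Bulk RNA-seq was done on day 5 of induction in 5 groups of 3 libraries per system: DMSO vehicle, dicoumarol, magnolol, dicoumarol plus magnolol (the combination, D+M in the plots) and rosiglitazone. Dicoumarol is a coumarin anticoagulant and an inhibitor of the quinone reductase NQO1, magnolol is a lignan of magnolia bark, and rosiglitazone is an agonist of the adipogenic receptor PPARγ. Every group, vehicle included, received its system's induction mix: for 3T3-L1, insulin at 0.75 µg/mL, dexamethasone at 75 nM and IBMX at 37.5 µM in 10% serum, and for DFAT, dexamethasone at 0.5 µM and IBMX at 12.5 µM in 2% serum with biotin and pantothenate. The labels give no doses of the compounds. The labels do not say that replicates came from separate cultures, so p-values measure the spread between these libraries, which may be technical.

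AHR is a transcription factor that waits in the cytosol with HSP90, moves to the nucleus when a planar aromatic ligand binds it, and pairs there with ARNT. The pair binds DNA at the core GCGTG and raises a battery of genes, among them the cytochromes P450 CYP1A1 and CYP1B1, the AHR repressor AHRR, NQO1 and TIPARP, an ADP-ribosyltransferase that in turn dampens AHR. POR hands electrons to the microsomal P450s, EPHX1 opens the epoxides they form, FMO1 and FMO2 oxidize soft nitrogen and sulfur atoms, and UGDH makes the UDP-glucuronate that glucuronidation and glycosaminoglycan synthesis consume. In preadipocytes, ligand-activated AHR is known to hinder fat cell formation.

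The mouse promoters of Tiparp and Cyp1b1, the 2 classical AHR targets among the members, and of Por, a member whose values moved in both systems, are shown first, because the receptor acts through this core. Windows of 300 bases, from 250 before to 50 after the start of the gene, come from RefSeq on build GRCm38.p6, and capitals mark the core as GCGTG or, on the other strand, CACGC. The Tiparp window is chr3:65528197-65528496 (plus strand), the Cyp1b1 window is chr17:79715012-79715311 (minus strand), and the Por window is chr5:135688895-135689194 (plus strand).
Tiparp: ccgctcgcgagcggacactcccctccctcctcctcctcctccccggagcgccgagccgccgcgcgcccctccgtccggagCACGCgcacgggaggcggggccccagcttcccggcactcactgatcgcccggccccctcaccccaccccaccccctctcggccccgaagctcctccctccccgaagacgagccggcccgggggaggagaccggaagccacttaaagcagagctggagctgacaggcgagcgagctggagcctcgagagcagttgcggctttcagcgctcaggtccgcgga
Cyp1b1: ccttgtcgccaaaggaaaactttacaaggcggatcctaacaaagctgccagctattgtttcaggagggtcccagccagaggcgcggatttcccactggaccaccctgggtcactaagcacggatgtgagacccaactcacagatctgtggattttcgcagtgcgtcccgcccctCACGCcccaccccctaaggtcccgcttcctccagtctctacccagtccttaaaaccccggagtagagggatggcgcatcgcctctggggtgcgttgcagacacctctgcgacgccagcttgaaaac
Por: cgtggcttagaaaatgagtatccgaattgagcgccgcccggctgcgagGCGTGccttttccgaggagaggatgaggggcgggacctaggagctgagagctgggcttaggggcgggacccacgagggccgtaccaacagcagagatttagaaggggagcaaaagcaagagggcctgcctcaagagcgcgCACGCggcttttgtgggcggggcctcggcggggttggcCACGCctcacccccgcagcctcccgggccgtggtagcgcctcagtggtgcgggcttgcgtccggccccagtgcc
The first base of the match, as printed, lies at position -170 from the start in Tiparp, at -76 in Cyp1b1, and at -202, -62 and -24 in Por. A window was given for 7 of the 9 members, and 5 of these held the core on either strand: Arnt and the 3 shown, and Ugdh with 3 matches. Ephx1 and the 2 windows of Fmo2 held none of these letters. Of all 32851 mouse windows, 32.4% held the core, so a match is common and describes letters, not a bound site. Promoter windows for Ahr, Fmo1 and the pig genes were not used here.

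In M reads, each 3T3-L1 library was estimated to hold 22.8 to 30.7 and each DFAT library 44.7 to 70.4. Of 10 adipocyte markers (Adipoq, Plin1, Fabp4 and others), 9 had a mean of at least 10 in 3T3-L1 and 10 in DFAT. Their summed normalized count was 51717 to 69027 in the 3T3-L1 vehicle libraries, 73988 to 106171 under dicoumarol, 102179 to 144625 under magnolol, 126566 to 195898 under the combination and 338532 to 581034 under rosiglitazone. In DFAT the sums were 18715 to 21607, 24520 to 26296, 38466 to 46699, 63243 to 70496 and 81512 to 88490 in the same order of groups. Fibroblast and preadipocyte markers (9 of 9 listed at a mean of at least 10 in 3T3-L1, 7 of 8 in DFAT) went down through the same groups in 3T3-L1, with sums of 380010 to 409161, 327299 to 382545, 314858 to 375902, 288585 to 338362 and 216292 to 288216. In DFAT their sums were above vehicle (2411670 to 2576350) with dicoumarol (3270490 to 3374400), magnolol (3700460 to 4263540) and the combination (3703480 to 4358380), and below it with rosiglitazone (1872990 to 2049400). Taken gene by gene, these 7 DFAT markers did not rise together. Under dicoumarol 1 was called higher than vehicle and 3 lower. Magnolol gave 3 higher and 3 lower, the combination likewise 3 and 3, and rosiglitazone 0 higher and 3 lower. The median adipocyte sum rose through the groups in the order given in both systems. In bulk RNA, fewer cells of a type and less RNA per cell cannot be told apart, and the part of the marker change in the member results was not tested. Macrophage markers had 3 of 6 listed genes at a mean of at least 10 in 3T3-L1 (sums of 263 to 293 with vehicle, 207 to 244 with dicoumarol, magnolol or both, and 134 to 182 with rosiglitazone) and 2 of 9 in DFAT (675 to 1039, C1QB at 0). Endothelial markers had 0 of 6 and 2 of 8 (KDR at 0), skeletal muscle markers 2 of 4 (sums of 67.5 to 117) and 2 of 8, and epithelial and hepatocyte markers 0 of 4 and 2 of 7 (CDH1 at 0). The muscle marker sums in DFAT were 135 to 154 with vehicle, 193 to 211 with dicoumarol, 179 to 272 with magnolol, 258 to 311 with the combination (both tested genes called higher) and 146 to 234 with rosiglitazone. Mitochondrial genes took 14.3% and 11.6% of the counts in 3T3-L1 rosiglitazone replicates 1 and 3, against 5.22% to 7.72% in the 13 others, and the 10 most abundant genes took 14.0% and 11.3%, against 6.72% to 8.93%. In DFAT the mitochondrial share was 9.58% to 10.2% with vehicle, 12.2% to 15.1% with the combination and 6.85% to 10.8% with rosiglitazone. The 10 most abundant genes took 17.0% to 17.8%, 21.5% to 24.9% and 14.3% to 18.1% in these groups. The part of these shifts in the DFAT differences was not tested.

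With rosiglitazone in 3T3-L1, 6 members fell and 1 rose: Ahr, Arnt, Ephx1, Fmo1, Fmo2 and Ugdh were lower than in vehicle, Por was higher, and Tiparp and Cyp1b1 did not pass the test. That is 7 of 9 against a background of 40.1% of all genes tested, with 19.9% lower and 20.3% higher. Without rosiglitazone replicates 1 and 3, the libraries of high mitochondrial share, limma called 2 members, Ephx1 (-1.15, adjusted p = 0.0209) and Fmo2 (-2.19, adjusted p = 0.0102), among 2869 genes in all. That fit, chosen after the data were seen, has 1 rosiglitazone library, assumed to vary like the other groups, and the other 5 kept their direction. For dicoumarol, magnolol and their combination limma called 0 of 9 members each: dicoumarol (0% of all genes called), magnolol (1.23%) and the combination (5.22%). At an unadjusted p under 0.05 they had 0, 2 and 3 members, against 2.5%, 10% and 17.1% of all genes. Leaving out 1 library took the 193 genes called with magnolol to between 22 and 135 and the 821 with the combination to between 286 and 726. In 3T3-L1 the replicate numbers pair libraries across groups, and with the number as a block magnolol had 2 members called (background 4.96%), the combination 5 (background 13.5%) and rosiglitazone still 7 (background 49.8%). Calls are by limma on log2(normalized count + 1) at a Benjamini-Hochberg adjusted p under 0.05 over all genes tested. Since the members were chosen with results of these data known, which contrast weighed in the choice is not recorded, and their p-values are descriptions to be read against these backgrounds.

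Against vehicle, the called members in DFAT cells were TIPARP, POR, CYP1B1 and FMO1. Rosiglitazone gave 3 calls among 8 members (background 10.8%): TIPARP and POR rose (5.8% of all genes higher) and CYP1B1 fell (5.02% lower). Magnolol gave 2 (background 4.22%) and the combination gave 2 (background 10.2%), TIPARP and FMO1 falling in both, where 1.27% and 4.06% of all genes were lower. Dicoumarol gave 0 of 8 with limma (background 1.94%), and 3 members had an unadjusted p under 0.05 (10.1% of all genes). The treatments share the vehicle libraries, and the 2 systems were normalized in separate tables, so values of the systems stand side by side without a test. Below, some groups in DFAT are described as lying wholly above or below another. The share of all DFAT genes with groups apart in this way is not given here. These separations are therefore descriptions of 3 libraries beside 3 and not results about the members.

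**Figure D1:**
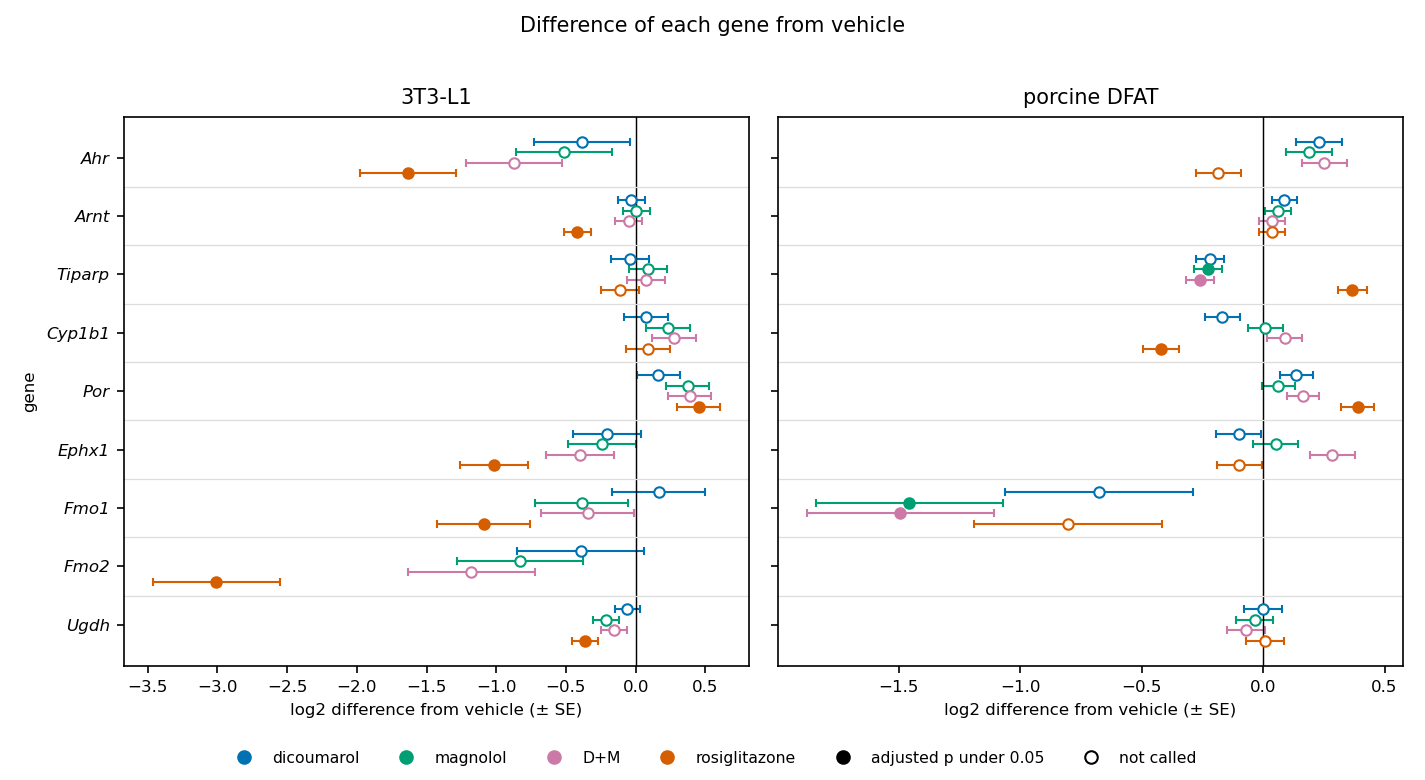
Log2 difference from vehicle (x axis, ± SE from limma, 3 libraries per group) for each of the 9 genes (y axis) in 3T3-L1 and porcine DFAT cells, with the 4 treatments in colour and filled circles for an adjusted p under 0.05. The 3T3-L1 rosiglitazone circles of Ahr, Ephx1, Fmo1 and Fmo2 lie at or below -1.02, while in DFAT all circles outside FMO1 lie between -0.42 and 0.39. FMO2 has no circle in DFAT, where it was listed at 0.

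Ahr, the ligand-binding receptor, lies on mouse chromosome 12 (35547973 to 35585037) and pig chromosome 9 (86511369 to 86555943). Coordinates here and below are those the deposited tables list. The submitters' processing notes name GRCm38 for all samples. However, 0 of 9 mouse members had the start that the GENCODE M21 annotation of GRCm38 gives (9 of 9 had its length). The listed mouse positions are thus not those of GRCm38, and cannot be set beside the promoter windows above, which are on GRCm38.p6. Which build the listed mouse and pig coordinates follow is not settled. In 3T3-L1, Ahr stood at 135, 248 and 100.0 normalized counts in vehicle replicates 1 to 3 and at 97.2, 147 and 104 with dicoumarol. It stood at 88.3, 148 and 87.1 with magnolol, at 77.1, 112 and 61.6 with the combination and at 35.6, 73.9 and 40.8 with rosiglitazone. Only the rosiglitazone libraries lay wholly below vehicle, and replicate 2 was the highest in all 5 groups. The group means (160.9 ± 77.6, 116 ± 26.7, 108 ± 34.6, 83.7 ± 26.1 and 50.1 ± 20.8, SD, n = 3) descended in that order, each neighbouring pair with overlapping libraries. Rosiglitazone differed from vehicle by -1.63 ± 0.34 log2 (SE, limma adjusted p = 0.00139). The combination differed by -0.87 ± 0.34, with a limma adjusted p of 0.183 without and 0.00145 with the replicate block. Dicoumarol and magnolol differed by -0.39 ± 0.34 and -0.51 ± 0.34, neither called.

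In DFAT cells AHR was abundant and its order of groups was another. The libraries held 8653, 7691 and 9683 normalized counts with vehicle, 9720, 9854 and 10873 with dicoumarol, and 9508, 9214 and 10895 with magnolol. They held 9899, 9654 and 11381 with the combination and 6837, 8217 and 7815 with rosiglitazone. All 3 dicoumarol libraries were above all 3 vehicle libraries, and the other treatments overlapped vehicle. No AHR difference from vehicle was called: dicoumarol gave 0.23 ± 0.09 log2, magnolol 0.19 ± 0.09, the combination 0.25 ± 0.09 and rosiglitazone -0.18 ± 0.09 (limma adjusted p of 0.358, 0.326, 0.103 and 0.267). The rosiglitazone libraries lay below all combination libraries, with a difference of -0.44 ± 0.09 log2 (limma adjusted p = 0.0035).

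Arnt, the receptor's DNA-binding partner (mouse chromosome 3, 95341699 to 95404551; pig chromosome 4, 98333459 to 98389457), stayed in a narrow range except with rosiglitazone in 3T3-L1. Its 12 other 3T3-L1 libraries lay between 2947 and 3602 normalized counts, and the rosiglitazone libraries held 2152, 2771 and 2283, below all of them. The difference from vehicle was -0.42 ± 0.10 log2 (limma adjusted p = 0.00276), and the 3 other treatments differed by -0.05 to 0.0051. In DFAT all 15 libraries lay between 3815 and 4295, and the 95% intervals of the 4 differences from vehicle reached from -0.08 to 0.20 log2. Arnt2, a paralog of Arnt, fell with rosiglitazone in 3T3-L1 by 1.77 ± 0.33 on the log2 scale (limma adjusted p = 0.000596, mean 28.9 normalized counts). ARNT2 in DFAT rose with magnolol (0.23 ± 0.06, limma adjusted p = 0.0471) and with the combination (0.26 ± 0.06, limma adjusted p = 0.0109).

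Tiparp, an AHR target and feedback inhibitor (mouse chromosome 3, 65435831 to 65462939; pig chromosome 13, 96496439 to 96525777), moved in DFAT and not detectably in 3T3-L1. In 3T3-L1 its libraries ranged from 1109 to 1729 normalized counts, all 4 treatments overlapped vehicle, and the differences were -0.11 to 0.09 ± 0.14 log2. In DFAT the vehicle libraries held 3356, 3021 and 3414, the dicoumarol libraries 2934, 2799 and 2678, and the magnolol libraries 2700, 2823 and 2828. The combination libraries held 2743, 2738 and 2675, and the rosiglitazone libraries 4210, 4348 and 4062. The rosiglitazone libraries were thus the 3 highest of the table, and every library with dicoumarol, magnolol or both was below every vehicle library, at overlapping levels among themselves. TIPARP rose with rosiglitazone by 0.37 ± 0.06 log2 (limma adjusted p = 0.000325). It fell by 0.23 ± 0.06 with magnolol (limma adjusted p = 0.0335) and by 0.26 ± 0.06 with the combination (limma adjusted p = 0.00705), and with dicoumarol the difference was -0.22 ± 0.06 (limma adjusted p = 0.0713). The magnolol call was lost when any 1 of vehicle 1, vehicle 3 or the 3 magnolol libraries was left out, with adjusted p of 0.071 to 0.147. Rosiglitazone stood 0.63 ± 0.06 log2 above the combination (limma adjusted p = 1.24e-06).

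Cyp1b1, the P450 of the CYP1 family that mesenchymal cells express (mouse chromosome 17, 80008966 to 80022490; pig chromosome 3, 102195741 to 102205683), was the most abundant member in both systems. It ranked 67 to 125 among all genes by normalized count in 3T3-L1 and 38 to 59 in DFAT. In DFAT it took 0.141% to 0.217% of the counts. Per kilobase of exon in 3T3-L1 vehicle it stood at 4195 normalized counts, above Ephx1 (1646), Ugdh (669), Por (609), Arnt (400.3) and Tiparp (324), with Fmo2 (38.2), Fmo1 (33.0) and Ahr (26.1) far lower. In 3T3-L1 the libraries ranged from 20596 to 33832, and replicate 3 was the highest and replicate 1 the lowest in all 5 groups. The combination libraries (26832, 30044 and 31822) lay above the vehicle libraries (21169, 25995 and 26337), where 21% of all genes were apart in either direction. That difference was 0.27 ± 0.16 log2, with a limma adjusted p of 0.425 without and 0.0392 with the replicate block, and the other treatments differed from vehicle by 0.08 to 0.23.

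In DFAT, CYP1B1 fell with rosiglitazone. Vehicle libraries held 120587, 123365 and 112643 normalized counts, and rosiglitazone libraries held 93757, 90080 and 82781, the 3 lowest of the table. Dicoumarol libraries held 106580, 110500 and 100207, magnolol libraries 116716, 121286 and 120448, and combination libraries 123082, 125517 and 130440. Dicoumarol was below every vehicle library, magnolol overlapped vehicle, and the combination was above every magnolol and dicoumarol library. The rosiglitazone difference from vehicle was -0.42 ± 0.07 log2 (limma adjusted p = 0.000698) and from the combination -0.51 ± 0.07 (limma adjusted p = 9.17e-05). The dicoumarol difference from vehicle was -0.17 ± 0.07 (limma adjusted p = 0.408), and the combination stood 0.26 ± 0.07 above dicoumarol (limma adjusted p = 0.0809).

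**Figure D2:**
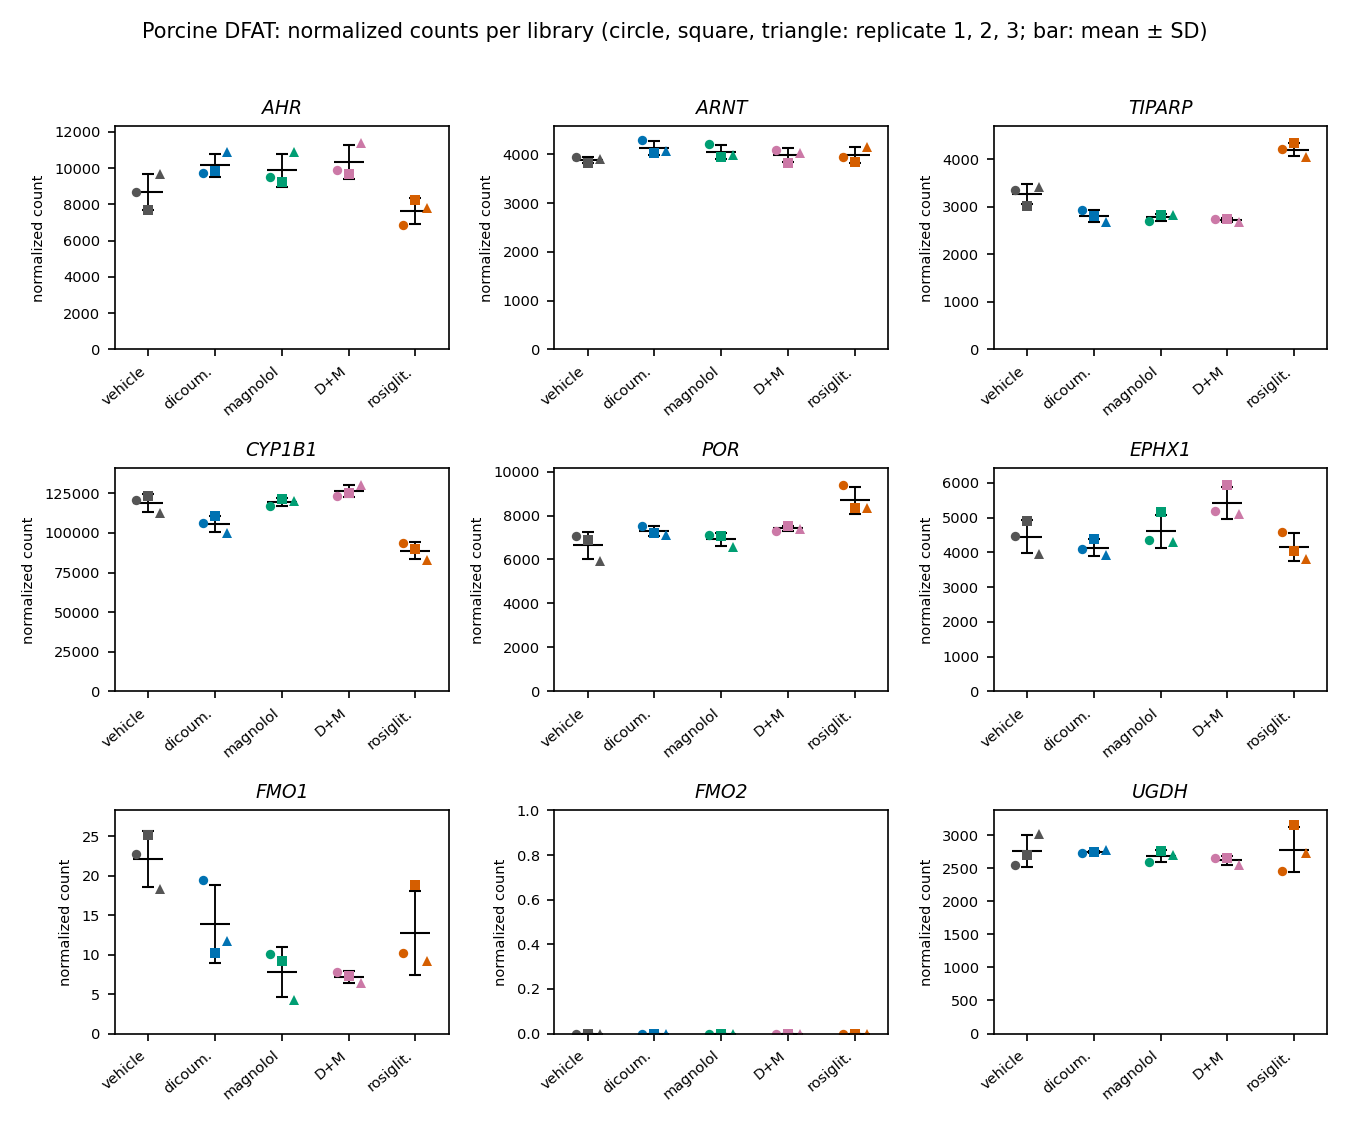
Normalized counts (y axis, from 0) of the 9 genes in each of the 15 DFAT libraries by group (x axis), with markers for replicates 1 to 3 and bars for the mean ± SD. TIPARP and POR reach their highest values with rosiglitazone (4348 and 9397) and CYP1B1 its lowest (82781). FMO1 reaches at most 25.2 normalized counts, and FMO2 is listed at 0 throughout.

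Other textbook AHR targets were read beside the members. Cyp1a1 and Cyp1a2 were not analysed in 3T3-L1, CYP1A2 was listed at 0 in every pig library, and CYP1A1 reached at most 3.16 normalized counts there, under the minimum. Ahrr, the repressor that competes with AHR for ARNT, reached at most 0.993 in 3T3-L1. In DFAT, AHRR (chromosome 16, 79730926 to 79810188) stood at 940, 938 and 901 with vehicle, at 1381, 1196 and 1339 with dicoumarol and at 1094, 1006 and 1037 with magnolol. It stood at 1296, 1220 and 1200 with the combination and at 979, 948 and 1069 with rosiglitazone. All treated libraries were above all vehicle libraries, and those with dicoumarol, alone or combined, were above all others. AHRR rose by 0.49 ± 0.07 log2 with dicoumarol (limma adjusted p = 0.000791) and by 0.42 ± 0.07 with the combination (limma adjusted p = 0.00071). The differences with magnolol (0.17 ± 0.07) and rosiglitazone (0.11 ± 0.07) were not called, with limma adjusted p of 0.211 and 0.435. Magnolol stood 0.32 lower than dicoumarol on the log2 scale (-0.32 ± 0.07, limma adjusted p = 0.0283), a call that failed without dicoumarol 1 or 3 or any 1 magnolol library (adjusted p of 0.0528 to 0.186).

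NQO1, the quinone reductase that dicoumarol inhibits, moved the other way in DFAT. Its libraries held 2229, 2305 and 2328 normalized counts with vehicle, 1673, 1775 and 1744 with dicoumarol, and 1185, 1499 and 1278 with magnolol. They held 1265, 1352 and 1261 with the combination and 1830, 1911 and 1642 with rosiglitazone. All 12 treated libraries were below all 3 vehicle libraries. Magnolol stood -0.40 ± 0.08 log2 from dicoumarol (limma adjusted p = 0.0129). The dicoumarol difference from vehicle, -0.40 ± 0.08, had a limma adjusted p of 0.00954 with all libraries and 0.0624 without dicoumarol 1. The differences with magnolol (-0.80), the combination (-0.82) and rosiglitazone (-0.35) stayed called when any 1 of the 6 libraries compared was left out. Their limma adjusted p then ranged from 2.08e-06 to 6.84e-05, from 9.57e-06 to 2.51e-05 and from 0.00437 to 0.0427. In 3T3-L1, Nqo1 ranged from 1008 to 1621 with no call.

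**Figure D3:**
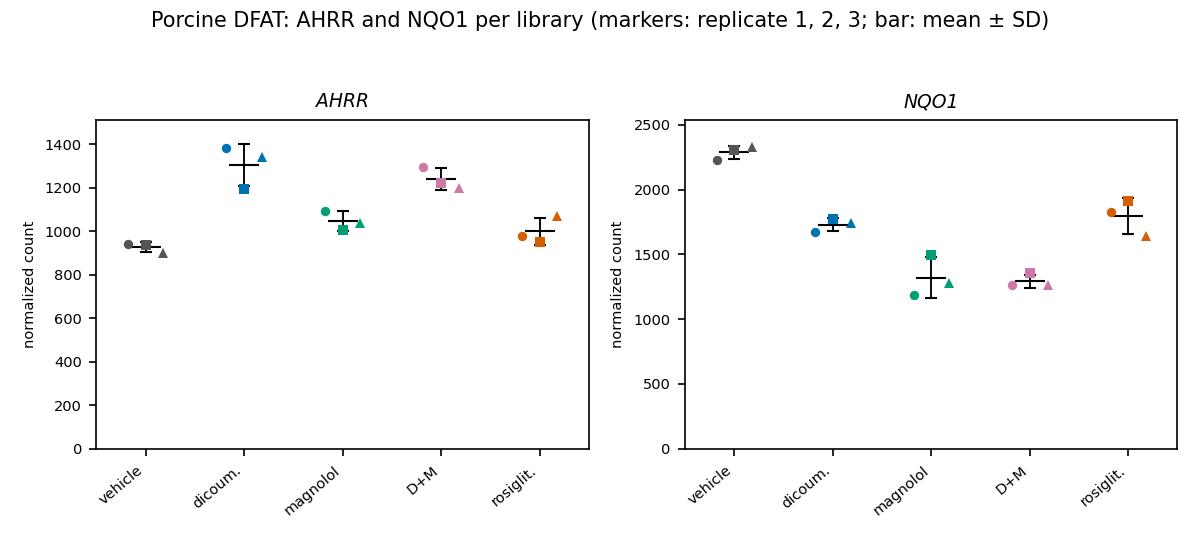
Normalized counts (y axis, from 0) of AHRR and NQO1 in the 15 DFAT libraries by group (x axis), with markers for replicates 1 to 3 and bars for the mean ± SD. AHRR is highest in the dicoumarol (1305 ± 97.1) and combination (1239 ± 50.4) groups, whereas NQO1 is lowest with magnolol (1321 ± 161) and the combination (1293 ± 51.5).

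Por, the reductase that feeds electrons to every microsomal P450 (mouse chromosome 5, 135698887 to 135764180; pig chromosome 3, 10212735 to 10281823), rose with rosiglitazone in both systems. The 3T3-L1 libraries held 2122, 2339 and 2887 normalized counts with vehicle, 2527, 2465 and 3233 with dicoumarol, and 2820, 2820 and 3908 with magnolol. They held 3043, 2968 and 3563 with the combination and 2834, 3367 and 3841 with rosiglitazone. Each treated library was above the vehicle library of its number, but across numbers only the combination cleared all vehicle libraries. The rosiglitazone difference was 0.45 ± 0.16 log2 (limma adjusted p = 0.0295), and it was lost without vehicle 1 or 2 or rosiglitazone 2 or 3 (adjusted p of 0.0586 to 0.122). Magnolol (0.37 ± 0.16) and the combination (0.39 ± 0.16) had limma adjusted p of 0.402 and 0.192 without and 0.00505 and 0.00157 with the replicate block. In DFAT the libraries held 7078, 6907 and 5942 with vehicle and 9397, 8347 and 8322 with rosiglitazone, the 3 highest of the table. POR rose there by 0.39 ± 0.07 log2 (limma adjusted p = 0.00078). The other 9 DFAT libraries ranged from 6587 to 7542 with no call against vehicle. Rosiglitazone exceeded the combination by 0.23 ± 0.07 (limma adjusted p = 0.0298), a call that failed without any 1 combination library or rosiglitazone 1 (adjusted p of 0.0568 to 0.114).

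Ephx1, the microsomal epoxide hydrolase (mouse chromosome 1, 180803775 to 180848469; pig chromosome 10, 13751881 to 13773072), fell with rosiglitazone in 3T3-L1. The libraries held 2866, 2744 and 4022 normalized counts with vehicle, 2363, 2371 and 3706 with dicoumarol, and 2411, 2237 and 3564 with magnolol. They held 2105, 2063 and 3179 with the combination and 1240, 1421 and 2170 with rosiglitazone. Replicate 3 was the highest in all 5 groups, and every treated library was below the vehicle library of its number. Rosiglitazone differed from vehicle by -1.02 ± 0.24 log2 (limma adjusted p = 0.00365). The combination differed by -0.40 ± 0.24, with a limma adjusted p of 0.458 without and 0.000905 with the replicate block. In DFAT the order was different: the combination libraries (5205, 5946 and 5092) were above the vehicle libraries (4477, 4913 and 3957), and dicoumarol (4109, 4385 and 3915), magnolol (4356, 5161 and 4307) and rosiglitazone (4589, 4047 and 3823) overlapped vehicle. EPHX1 was 0.39 ± 0.09 log2 higher with the combination than with dicoumarol (limma adjusted p = 0.0343), a call that failed when any 1 of these 6 libraries was left out (adjusted p of 0.0526 to 0.158). It was 0.38 lower with rosiglitazone than with the combination (-0.38 ± 0.09, limma adjusted p = 0.00827). The combination difference from vehicle was 0.29 ± 0.09 (limma adjusted p = 0.0623). In the pig table EPHX1 overlaps TMEM63A on the opposite strand over 3468 bases. The kit marks strand, but the strand setting of the counting is not stated in the sources used here, so reads of the 2 genes may be mixed.

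Fmo1 and Fmo2, flavin-containing monooxygenases, are paralogs that lie next to each other on mouse chromosome 1 (162657130 to 162694179 and 162701886 to 162726295), 7706 bases apart, and on pig chromosome 9 (63868064 to 63895076 and 63812492 to 63852085). How reads shared by them were counted is not stated in the sources used here, so the split between them is uncertain. Fmo2 had the widest range of the 9 genes in 3T3-L1: 226, 271 and 145 normalized counts with vehicle, 186, 209 and 100.4 with dicoumarol, and 160.0, 143 and 68.5 with magnolol. It stood at 97.3, 132 and 58.6 with the combination and at 30.4, 44.6 and 11.1 with rosiglitazone. The group means descended in that order, the combination and rosiglitazone libraries lay wholly below vehicle, and only the step from the combination to rosiglitazone separated neighbouring groups. Fmo2 fell with rosiglitazone by 3.01 ± 0.45 on the log2 scale (limma adjusted p = 9.07e-05), to 0.124 of the vehicle level on the log2(normalized count + 1) scale. Rosiglitazone also lay below the combination (-1.83 ± 0.45, limma adjusted p = 0.0126), a call that failed without combination 2 (adjusted p = 0.0569) or rosiglitazone 3 (adjusted p = 0.0529). Magnolol (-0.83 ± 0.45) and the combination (-1.18 ± 0.45) had limma adjusted p of 0.595 and 0.174 without and 0.012 and 0.000335 with the replicate block.

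Fmo1 in 3T3-L1 held 257, 225 and 143 normalized counts with vehicle, 292, 319 and 125 with dicoumarol, and 178, 210 and 97.8 with magnolol. It held 174, 170.1 and 136 with the combination and 96.5, 114 and 76.6 with rosiglitazone. As for Fmo2, replicate 3 was the lowest library in all 5 groups, but dicoumarol did not lie below vehicle. Fmo1 fell with rosiglitazone by 1.09 ± 0.33 on the log2 scale (limma adjusted p = 0.0164), a call that failed without vehicle 1 or 2 or rosiglitazone 3 (adjusted p of 0.0573 to 0.0673). In DFAT, FMO1 was near the limit of measurement, with 22.8, 25.2 and 18.3 with vehicle, 19.5, 10.3 and 11.8 with dicoumarol, and 10.0, 9.14 and 4.21 with magnolol. The combination libraries held 7.85, 7.29 and 6.37, and the rosiglitazone libraries 10.3, 18.8 and 9.17. Magnolol and combination libraries lay below all vehicle libraries. FMO1 fell by 1.46 ± 0.39 log2 with magnolol (limma adjusted p = 0.0406) and by 1.49 ± 0.39 with the combination (limma adjusted p = 0.0189). Its mean without the vehicle libraries was 10.4, just over the minimum. The magnolol call was lost when any 1 of the 6 libraries compared was left out (adjusted p of 0.051 to 0.19), and the combination call was lost without vehicle 1 or 2 or combination 3 (adjusted p of 0.0611 to 0.0654).

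Ugdh, the enzyme that makes UDP-glucuronate (mouse chromosome 5, 65570564 to 65593292; pig chromosome 8, 30725288 to 30759326), changed least among the members called in 3T3-L1. Its 3T3-L1 libraries held 4288, 5034 and 4238 normalized counts with vehicle, 4112, 4567 and 4310 with dicoumarol, and 3678, 4114 and 3889 with magnolol. They held 3846, 4217 and 4094 with the combination and 3138, 3672 and 3734 with rosiglitazone. The magnolol, combination and rosiglitazone libraries all lay below every vehicle library. Groups were apart in this way, in either direction, for 15.4%, 21% and 45.6% of all genes tested in these 3 comparisons. Rosiglitazone differed by -0.36 ± 0.09 log2 (limma adjusted p = 0.00526), magnolol by -0.21 ± 0.09 (limma adjusted p = 0.429) and the combination by -0.15 ± 0.09 (limma adjusted p = 0.445). In DFAT the 15 libraries ranged from 2463 to 3147, and the 95% intervals of the 4 UGDH differences from vehicle reached from -0.24 to 0.17 log2.

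**Figure D4:**
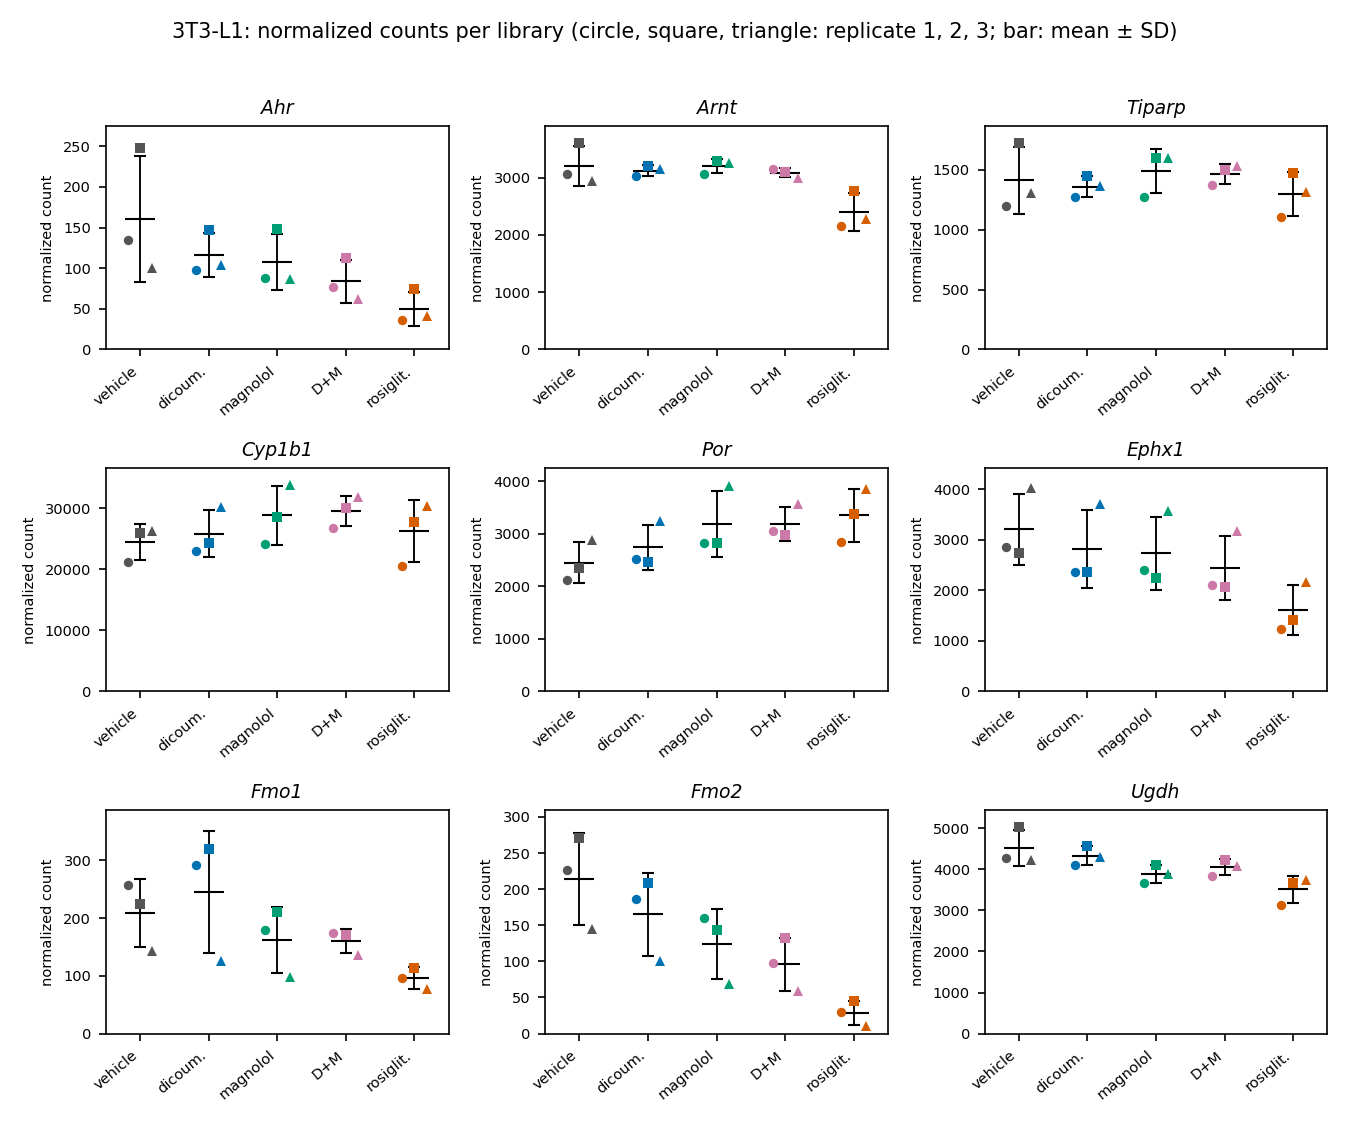
Normalized counts (y axis, from 0) of the 9 genes in each of the 15 3T3-L1 libraries by group (x axis), with markers for replicates 1 to 3 and bars for the mean ± SD. Ahr, Arnt, Tiparp, Ephx1, Fmo1, Fmo2 and Ugdh have their lowest mean with rosiglitazone, Tiparp without a call. The triangle of replicate 3 is the highest for Cyp1b1, Por and Ephx1 and the lowest for Fmo1 and Fmo2 in every group.

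Comparisons between treatments asked whether the combination exceeded its parts. In 3T3-L1, limma called 0 of 9 members between the combination and dicoumarol (background 0.0254%), between the combination and magnolol (background 0%) and between magnolol and dicoumarol (background 0%), with 0 members at an unadjusted p under 0.05 in each (8.1%, 2.14% and 4.41% of all genes). With the replicate block Fmo2 alone passed between the combination and dicoumarol (-0.78 ± 0.18, limma adjusted p = 0.0242, background 3.62%). Rosiglitazone against the combination gave 2 calls, Arnt (-0.37 ± 0.10, limma adjusted p = 0.0171) and Fmo2, both lower, against a background of 18.3% (8.78% lower), and 6 calls with the block (background 33.3%). Without rosiglitazone replicates 1 and 3 there were 0 calls among members and 42 among all genes. The 4 calls that the replicate block added, with all libraries kept, were Ahr (limma adjusted p = 0.0021), Ephx1 (1.28e-05), Fmo1 (0.00385) and Ugdh (0.0221). The Arnt call was lost without combination 1 or rosiglitazone 1 or 3 (adjusted p of 0.0543 to 0.0889).

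In DFAT, 1 of 8 members was called between the combination and dicoumarol (EPHX1, background 2.35%), 0 between the combination and magnolol by limma (background 0.621%) and 0 between magnolol and dicoumarol (background 1.57%). These last 2 had 1 member each at an unadjusted p under 0.05 (6.67% and 10.2% of all genes). Between rosiglitazone and the combination 5 of 8 were called (background 17%): TIPARP and POR higher with rosiglitazone (8.24% of all genes higher), and AHR, CYP1B1 and EPHX1 lower (8.79%). The interaction of dicoumarol and magnolol, which asks whether the combination differs from the sum of both log2 differences, gave 0 calls by limma in 3T3-L1 (background 0%) and 0 in DFAT (background 0.081%). At an unadjusted p under 0.05 there were 0 members in 3T3-L1 (0.496% of all genes) and 3 in DFAT (3.93%), EPHX1 (0.34 ± 0.13), CYP1B1 (0.25 ± 0.10) and TIPARP (0.18 ± 0.08), each with a limma adjusted p of 1.

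Other genes of these pathways, 97 measured in 3T3-L1 and 72 in DFAT, moved in part with the same treatments. In 3T3-L1, limma called 0 of 97 with dicoumarol (3 at an unadjusted p under 0.05), 2 for magnolol, 13 for the combination and 50 for rosiglitazone, where 0%, 1.23%, 5.22% and 40.1% of all genes were called. With the replicate block the counts were 2, 12, 30 and 58, beside 0.502%, 4.96%, 13.5% and 49.8% of all genes. The 2 with dicoumarol were 1 phase I and 1 conjugating enzyme, both higher. The list counts for rosiglitazone stand beside 20.3% of all genes higher and 19.9% lower. With rosiglitazone, 3 of 8 genes of the AHR machinery rose (4 with the block) and 2 fell (median log2 difference 0.22, all genes -0.0015), among them the chaperone helper Ptges3 (0.58 ± 0.10, limma adjusted p = 0.000348) and Arnt2 at the extremes. Of 4 measured genes of the AHR battery beside the members 3 fell (median -0.59). These were Aldh3a1, an aldehyde dehydrogenase, by 0.98 ± 0.12, and the glucuronosyltransferases Ugt1a6a and Ugt1a6b (named after their values were seen). The last 2 share exons, so they cannot be told apart with certainty and may be 1 signal. Among the members, the battery genes Tiparp (-0.11) and Cyp1b1 (0.087) were not called with rosiglitazone. Aldh3a1 also fell with the combination (-0.58 ± 0.12, limma adjusted p = 0.0125), the only battery gene called there.

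Of 8 electron partners of P450s, 4 rose with rosiglitazone in 3T3-L1 (5 with the block), 1 fell and 3 did not pass (median 0.38). Fdxr, the mitochondrial ferredoxin reductase, rose most (0.99 ± 0.15, limma adjusted p = 0.000118), and Cyb5r1 fell (-0.39 ± 0.14, limma adjusted p = 0.0342). Other P450s split 3 higher and 3 lower (4 with the block) of 12 (median -0.09), from Cyp2e1 (4.45 ± 0.63, limma adjusted p = 4.97e-05), at a mean of 25.1 normalized counts, to Cyp7b1 (-0.95 ± 0.37, limma adjusted p = 0.0494). Other phase I enzymes split 10 higher and 7 lower of 22 (median 0.13), with the largest rise in the carboxylesterase Ces1d (4.11 ± 0.50, limma adjusted p = 1.23e-05). Both phase I genes called with magnolol, Ces1d (2.72 ± 0.50) and the soluble epoxide hydrolase Ephx2 (0.67 ± 0.14, named after its value was seen), rose. With the replicate block 6 phase I enzymes, 3 other P450s and 2 conjugating enzymes rose with magnolol and 1 battery gene fell. Conjugating enzymes had 5 higher and 2 lower of 22 (median 0.04), led by Mgst3, a microsomal glutathione transferase (2.15 ± 0.16, limma adjusted p = 2.8e-07), and 6 higher and 5 lower with the replicate block. Of 14 genes listed beside Ugdh for UDP-glucuronate supply and use or for glycosaminoglycan synthesis, 1 rose and 3 fell (4 with the block, median -0.09). Csgalnact1 of chondroitin sulfate synthesis fell most (-1.81 ± 0.18, limma adjusted p = 2.42e-06). Transporters had 0 higher and 3 lower of 7 (median -0.27), led by the efflux pump Abcb1b (-0.73 ± 0.16, limma adjusted p = 0.00181).

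With the combination in 3T3-L1, 2 of 8 electron partners, 2 of 12 other P450s, 4 of 22 other phase I enzymes and 3 of 22 conjugating enzymes rose and 1 of 14 UDP-glucuronate genes fell. The largest were Cyp2e1 (3.44 ± 0.63, limma adjusted p = 0.00386), Ces1d (3.04 ± 0.50, limma adjusted p = 0.00211) and Mgst3 (0.95 ± 0.16, limma adjusted p = 0.0028). The list medians lay between -0.04 and 0.10 outside the battery (-0.21), beside -0.0089 over all genes. With the replicate block the conjugating enzymes had 4 higher and 5 lower, the other phase I enzymes 7 higher and 3 lower, the other P450s 4 higher, the electron partners 3 higher, and the AHR machinery and the transporters 1 lower each.

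In DFAT, limma called 6 of 72 such genes for dicoumarol, 10 for magnolol, 21 for the combination and 17 for rosiglitazone, where 1.94%, 4.22%, 10.2% and 10.8% of all genes were called. Of 8 genes of the AHR machinery, 1, 1, 3 and 0 were called in the same order. With the replicate block, 2 of these 8 were higher and 3 lower with the combination, where 2643 genes were called in all. ALDH1A1, a retinaldehyde dehydrogenase, fell with all 4 treatments (-0.71, -0.53, -0.87 and -1.40 log2, each ± 0.08, limma adjusted p of 5.05e-05, 0.000578, 1.1e-06 and 1.47e-09). CYP26B1, which degrades retinoic acid, rose with all 4 (0.77, 1.17, 1.77 and 1.26, each ± 0.12, limma adjusted p of 0.00178, 1.16e-05, 2.9e-08 and 1.42e-06). Among conjugating enzymes MGST1 rose with magnolol (0.56 ± 0.10), the combination (1.21 ± 0.10) and rosiglitazone (1.62 ± 0.10), and GSTA4 fell with the combination and rosiglitazone (-0.26 and -0.27, each ± 0.06). The UDP-glucuronate genes had UGP2, the enzyme upstream of UGDH, lower with dicoumarol (-0.29 ± 0.06) and the combination (-0.37 ± 0.06) and higher with rosiglitazone (0.22 ± 0.06). XYLT1, which starts glycosaminoglycan chains, rose with all 4 treatments, by 0.34 to 0.50. PGRMC1, the only electron partner called, fell with magnolol (-0.24 ± 0.07) and the combination (-0.35 ± 0.07) and rose with rosiglitazone (0.21 ± 0.07). Among 5 transporters ABCC3 rose with the combination (0.23 ± 0.05) and ABCB1 with rosiglitazone (0.68 ± 0.11). The DFAT list medians with rosiglitazone lay between -0.07 and 0.07 log2, beside -0.0057 over all genes.

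The genes whose pattern over the 15 libraries was most like Fmo2 in 3T3-L1, among 11577 with a mean of at least 100, were Atp1b1, Tifa and Slc12a4, with Pearson r of 0.967, 0.966 and 0.966. In DFAT the widest range of group means belonged to FMO1, and the most similar of 9932 genes were AAMP, RGL1 and EIF3G, with r of 0.925, 0.919 and 0.899. These are descriptions over libraries that share groups, normalization and, in 3T3-L1, replicate numbers.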

How the data were processed

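The data are 30 bulk RNA-seq libraries, 15 per cell system, made from mRNA with dUTP strand marking, per the labels' protocols. The submitters' processing notes name bcl2fastq 2.19.1.403, STAR, DESeq2 and GRCm38 for all samples, pig included. The counter, its strand setting and the annotation were not stated there. The deposited values are a signal: gene counts that the authors divided by DESeq2 size factors, in 1 table per species. Columns were mapped to samples by name.

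Low values (up to 20) were whole multiples of 1 read, at a tolerance of 0.02, for 81.4% to 83.8% of genes in 3T3-L1 and 89.7% to 91.0% in DFAT, so whole reads were not recovered and no count test was run. These steps gave the depth estimates (medians 27.1 and 62.4 M reads). A limma 3.58.1 model (R 4.3.3) with all 5 groups and a variance trend was run on log2(value + 1) for genes with a mean of at least 10 (15723 mouse, 14819 pig). Tests were two-sided, and Benjamini-Hochberg adjustment at 0.05 was over all genes. The scale understates changes of low genes. The median SE was 0.146 in 3T3-L1 and 0.0992 in DFAT. The script was tested on simulated data.

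Genes named beside the members were, per list and comparison with vehicle, the largest called rise and fall and any sole call, then Cyp1a1, Cyp1a2, Ahrr and Nqo1, and the 3 genes most like the member of widest range. The members, lists and markers were chosen with earlier results of these data known. The replicate numbers pair the 3T3-L1 libraries: deviations from group means correlated above 0.1 in 30 of 30 same-number pairs (0.106 or more, median 0.300; other pairs, median -0.142). What a number marks is not stated in the labels. Blocked values or counts stand beside 3T3-L1 results where they change a member's call or a list's count against vehicle. In DFAT only the magnolol, combination and rosiglitazone libraries pair.

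Alternatives were pseudocounts of 0.5 and 10, no filter or a mean of at least 50, no trend, quantile normalization, only the groups compared, the replicate block, and leaving out each library or, added after the data were seen, both 3T3-L1 rosiglitazone libraries of high mitochondrial share. Plots and tables were made in Python 3.11.15 (numpy 2.4.6, pandas 2.3.3, matplotlib 3.10.9).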

Additional observations from a re-analysis of the deposited data

Results flagged for a closer look

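These results stand out because every treated library moved one way from the vehicle mean in 3T3-L1 and the opposite way in DFAT. The difference between the systems was not tested, since their tables were normalized separately, and none of these differences passed the test without the replicate block. For the receptor Ahr the log2 difference from vehicle was -0.39 in 3T3-L1 and 0.23 in DFAT with dicoumarol. With magnolol it was -0.51 and 0.19, and with the combination -0.87 and 0.25. With the replicate block the combination differences passed in both systems (limma adjusted p of 0.00145 and 0.0127), in opposite directions. Pairing of vehicle with the combination by number was weak in DFAT, where 2 of 3 same-number pairs correlated above 0.1 (median 0.122). For Arnt, the partner of Ahr, the dicoumarol differences were -0.031 and 0.088, both within 2 standard errors of 0. Against the vehicle library of the same number, 1 of 3 dicoumarol libraries in 3T3-L1 was above vehicle for Ahr and 1 of 3 for Arnt, so the direction within pairs was not uniform there. For the epoxide hydrolase Ephx1 the combination differences were -0.40 and 0.29 (with the block, limma adjusted p of 0.000905 and 0.00482), and the pig value may hold reads of TMEM63A. AHR and EPHX1 in DFAT were also lower with rosiglitazone than with the combination (limma adjusted p of 0.0035 and 0.00827). No explanation was tested.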

How the results depend on the processing

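With the replicate block, members called in 3T3-L1 went from 0 to 2 with magnolol and from 0 to 5 with the combination against vehicle, from 0 to 1 for the combination against dicoumarol and from 2 to 6 for rosiglitazone against the combination. In DFAT, where pairing by number was weaker, the block gave 1 in place of 0 with dicoumarol (TIPARP). It gave 5 in place of 2 with the combination (AHR, POR and EPHX1 added). For the combination against dicoumarol it gave 2 in place of 1 (CYP1B1 added). It changed no other member call. Fitting only the groups compared gave 1 (Fmo2) in place of 0 for the 3T3-L1 combination and 0 in place of 2 for magnolol in DFAT, and the Arnt call between rosiglitazone and the combination in 3T3-L1 was lost (adjusted p = 0.0648). In DFAT, magnolol had 1 in place of 2 without the filter, at a mean of at least 50 and without the trend. The combination had 1 in place of 2 at a mean of at least 50, where FMO1 is not fitted. The combination against dicoumarol had 0 in place of 1 without the filter, without the trend and under quantile normalization. Por with rosiglitazone in 3T3-L1 had an adjusted p of 0.0543 without the trend, and POR between rosiglitazone and the combination in DFAT 0.0567, 0.056 without the filter and 0.0872 with only the groups compared. Leaving out 1 library, the counts ranged from 5 to 7 for rosiglitazone in 3T3-L1 and from 1 to 3 for rosiglitazone against the combination there. In DFAT they ranged from 0 to 1 with dicoumarol, from 0 to 1 with magnolol and from 1 to 3 with the combination, were 0 throughout for the combination against dicoumarol, and ranged from 4 to 5 for rosiglitazone against the combination. Pseudocounts of 0.5 and 10 left every member count as it was. Without rosiglitazone replicates 1 and 3, an alternative added after seeing the data, 3T3-L1 had 2 in place of 7 members with rosiglitazone and 0 in place of 2 for rosiglitazone against the combination, with fewer samples. The causes of the other changes were not tested.

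All 37 reversals of sign were in differences that were not called. Under quantile normalization Arnt in 3T3-L1 with magnolol became -0.00017, UGDH in DFAT 0.016 with dicoumarol and -0.0037 with rosiglitazone, and CYP1B1 in DFAT -0.11 with magnolol and -0.090 with the combination. Without rosiglitazone replicates 1 and 3, Tiparp in 3T3-L1 became 0.077. Leaving out 1 library moved these log2 differences from vehicle across 0 in 3T3-L1. Arnt ranged from -0.089 to 0.056 with dicoumarol, from -0.053 to 0.092 with magnolol and from -0.11 to 0.037 with the combination. Tiparp ranged from -0.15 to 0.11 with dicoumarol, from -0.021 to 0.24 with magnolol, from -0.036 to 0.23 with the combination and from -0.22 to 0.040 with rosiglitazone. Cyp1b1 ranged from -0.041 to 0.15 with dicoumarol and from -0.030 to 0.25 with rosiglitazone, Fmo1 from -0.083 to 0.59 and Ugdh from -0.10 to 0.021 with dicoumarol. In DFAT, UGDH ranged from -0.055 to 0.067 with dicoumarol, from -0.090 to 0.032 with magnolol and from -0.085 to 0.092 with rosiglitazone. With magnolol CYP1B1 ranged from -0.030 to 0.036, POR from -0.015 to 0.11 and EPHX1 from -0.033 to 0.13.

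Counts over all genes also moved by over 1.5 times. They were, with the block in 3T3-L1, 79 in place of 0 (dicoumarol), 780 in place of 193 (magnolol), 2124 in place of 821 (combination), 569 in place of 4 (combination against dicoumarol), 79 in place of 0 (magnolol against dicoumarol) and 5234 in place of 2879 (rosiglitazone against the combination). In DFAT the block gave 670 in place of 288, 1360 in place of 626 and 2643 in place of 1508 for dicoumarol, magnolol and the combination, 893 in place of 348, 290 in place of 92 and 656 in place of 233 for the combination against dicoumarol, the combination against magnolol and magnolol against dicoumarol, and 34 in place of 12 for the interaction. Only the groups compared gave 102 for 3T3-L1 magnolol and 1465 for rosiglitazone against the combination, and 936 in place of 1604, 44, 450 and 1336 in place of 2523 in DFAT for rosiglitazone, the combination against magnolol, magnolol against dicoumarol, and rosiglitazone against the combination. Without the trend 3T3-L1 magnolol gave 80, and in DFAT the combination against magnolol gave 57 and the interaction 5. Without the filter, DFAT gave 149 for magnolol against dicoumarol and 7 for the interaction. The combination against dicoumarol in 3T3-L1 gave 8 under quantile normalization and 0 without the trend or with only the groups compared. Leaving out 1 library, the counts ranged in 3T3-L1 from 22 to 135 (magnolol), 286 to 726 (combination), 0 to 1 (dicoumarol), 0 to 46 (combination against dicoumarol) and 1077 to 4019 (rosiglitazone against the combination). In DFAT they ranged from 153 to 237, 400 to 577 and 1011 to 1375 (dicoumarol, magnolol, combination), 175 to 268 (combination against dicoumarol), 44 to 68 (combination against magnolol), 115 to 150 (magnolol against dicoumarol) and 5 to 13 (interaction). FMO1 and CYP1A1 in DFAT and Ahrr in 3T3-L1 had values near or under the minimum mean. The part of depth in these low values was not tested.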
